A study of Mus musculus with 12 samples.

Results

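AP-1 is a family of transcription factors that bind DNA as dimers of basic leucine zipper proteins, and 10 of its genes in the mouse were followed across the 12 RNA-seq libraries of the study: the Jun genes Jun, Junb and Jund, the Fos genes Fos, Fosb, Fosl1 and Fosl2, the BATF genes Batf and Batf3, and Atf3. They were chosen by name as the dimer partners that T cells and ALK-positive lymphoma are known to use. All 10 were found among the 50600 gene IDs counted, and all 10 were among the 16052 genes that passed the filter on low counts. The libraries came from 3 mice in each of 4 groups, on a mixed C57Bl/6 x SV/129 background. Ctrl were thymocytes of mice with floxed Dnmt1 (DNMT1 fl/fl) and no Cre, at 20 to 25 wk. KO were thymocytes in which CD4-CRE deletes floxed Dnmt1, the gene of the maintenance DNA methyltransferase, in T-lineage cells, at 20 to 21 wk. ALK were T-cell lymphoma cells of mice that carry human NPM-ALK, a fusion kinase driven by the T-cell-specific Cd4 enhancer and promoter, at 22 to 31 wk. ALKKO were thymocytes of mice with NPM-ALK, floxed Dnmt1 and CD4-CRE, at 19 to 25 wk. The labels state no floxed Dnmt1 for the ALK tumors, and the only group with NPM-ALK and intact Dnmt1 is a tumor, so that transformation and Dnmt1 status cannot be told apart where ALK is compared with ALKKO. KO replicate 2 was the only female mouse. The ages are those of the labels, and the study's methods give a single younger age for the bulk samples. The study's results name thymocytes and tumor cells, while its methods describe RNA from homogenized thymus and tumor tissue. Cells other than T cells may therefore be in every library.

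Jun proteins can pair with themselves or with Fos proteins, which cannot pair among themselves, and AP-1 dimers bind the TPA response element, a short palindrome that was named after a phorbol ester. In T cells the family acts downstream of the T-cell receptor: MAP kinases switch on Fos and Jun within minutes, and AP-1 then joins NFAT at cytokine genes. BATF and BATF3 have no transactivation domain, pair with Jun proteins and recruit IRF4 or IRF8, and BATF3 is also required for the development of cross-presenting dendritic cells. JunB and BATF3 are known to be highly expressed in human ALK-positive anaplastic large cell lymphoma.

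The promoters of the 2 members that were lower in the tumors, Jund and Batf3, are shown with those of their nearest relatives, Junb and Batf, from the RefSeq table for GRCm38.p6, which held 9 of the 10 members (not Fosl1). Each window covers 250 bases before and 50 bases after the annotated RefSeq start, 5′ to 3′ on the gene's strand. Capitals mark the 1 match to a searched motif, TTCNNNGAA, the element that STAT proteins bind. It began 239 bases upstream of the annotated RefSeq start of Batf3. That start, at 191098414, lies downstream of the gene's start in GENCODE M21, at 191097847. The match therefore lies inside the GENCODE gene and not upstream of it.
Jund, chr8:70697489-70697788, plus strand: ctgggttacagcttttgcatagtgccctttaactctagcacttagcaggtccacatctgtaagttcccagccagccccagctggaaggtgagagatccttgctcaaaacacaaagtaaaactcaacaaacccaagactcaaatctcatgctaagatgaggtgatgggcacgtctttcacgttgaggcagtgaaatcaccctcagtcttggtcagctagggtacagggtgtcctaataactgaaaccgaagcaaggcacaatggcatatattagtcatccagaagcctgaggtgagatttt
Junb, chr8:84978699-84978998, minus strand: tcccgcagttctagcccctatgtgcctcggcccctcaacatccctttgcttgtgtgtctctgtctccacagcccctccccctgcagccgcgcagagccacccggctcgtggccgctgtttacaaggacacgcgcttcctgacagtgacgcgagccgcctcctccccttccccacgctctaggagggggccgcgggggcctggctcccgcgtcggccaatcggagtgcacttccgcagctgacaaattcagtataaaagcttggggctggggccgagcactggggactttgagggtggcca
Batf3, chr1:191098164-191098463, plus strand: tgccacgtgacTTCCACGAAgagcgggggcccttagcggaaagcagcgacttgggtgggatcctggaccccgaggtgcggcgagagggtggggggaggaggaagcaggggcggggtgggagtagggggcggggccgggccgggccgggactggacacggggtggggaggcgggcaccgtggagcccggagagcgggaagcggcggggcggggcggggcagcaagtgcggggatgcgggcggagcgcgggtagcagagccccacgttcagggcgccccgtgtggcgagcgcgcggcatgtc
Batf, chr12:85686470-85686769, plus strand: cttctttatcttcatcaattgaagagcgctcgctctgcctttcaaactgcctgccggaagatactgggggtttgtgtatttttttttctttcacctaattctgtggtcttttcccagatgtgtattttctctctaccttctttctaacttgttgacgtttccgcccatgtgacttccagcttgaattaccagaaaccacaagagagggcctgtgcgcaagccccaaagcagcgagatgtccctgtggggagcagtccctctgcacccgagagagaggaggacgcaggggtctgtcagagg
None of the 9 windows held the TPA response element TGANTCA or the cAMP response element TGACGTCA on either strand, which occurred in 7.81% and 1.79% of the 32851 promoter windows of that length in the table. None held a serum response element, present in 1.63% of all windows, and the STAT element was in 8.3% of all windows. With 1 match in all, no motifs overlapped, and a window without a match says only that these letters are not in it. The Batf3 window had a G and C content of 75.7% and the Jund window 46.7%. The RefSeq start of Jund lies 1210 bases upstream of the gene's start in GENCODE M21, so the Jund window shows the sequence at the outer start only. The RefSeq starts of Batf3, Batf, Fosb, Fosl2 and Atf3 lie inside their GENCODE genes, that of Atf3 the farthest from the GENCODE start.

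On GRCm38, Jund (8:70698949-70700616, plus strand) and Junb (8:84974484-84978718, minus strand) share chromosome 8. Fos and Batf lie 209.4 kb apart on chromosome 12, and Batf3 and Atf3 lie 61.4 kb apart on chromosome 1. Jun, Junb, Jund, Fosl1 and Atf3 overlap an annotated gene on the opposite strand (Junos, Prdx2, Gm11175, Ccdc85b and Gm24748), and since the strand setting of the counting is not given in the sources used here, their counts are uncertain to that extent.

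The libraries held 12473857 to 18864327 reads counted on genes (median 15262212). Levels are given as CPM, read counts relative to the library total after scaling by edgeR's TMM factors. On this scale 3 counts correspond to 0.1585 CPM in Ctrl replicate 1, the lowest, and 0.2619 CPM in ALK replicate 2, the highest. The labels were checked first. Dnmt1 was at 400.0 to 487 CPM in Ctrl and 206 to 244 in KO, and at 379 to 788 in ALK and 205 to 244 in ALKKO, and counts per gene do not separate the floxed exons. Reads on mouse Alk, which may include reads of the human fusion, were at most 0.431 CPM in Ctrl and KO and 34.9 to 55.0 CPM in ALK and ALKKO. Some libraries stood apart in markers of other cells. KO replicate 2 had a summed level of 7 B cell markers of 2078 CPM, against 65.6 to 110 CPM in Ctrl. ALK replicate 3 had a summed level of 8 dendritic cell markers of 122 CPM, against 7.79 and 21.8 CPM in the other two tumors, and Ccr7, which T cells express too, gave 91.2 CPM of it. Of the thymocyte markers, 7 of 13 tested were lower in ALK than in Ctrl (Cd8b1, Ccr9 and Cd4 by the most). The call of Ccr9 was lost under 1 of 20 alternative fits, DESeq2's Wald test. Ptcra alone had a fold change above 0 (log2 fold change 2.07, SE 0.75, adjusted p = 0.0595, edgeR). It was at 46.35 to 49.01 CPM in Ctrl and 424.5, 142.4 and 32.53 in ALK. Rag1 was listed at 0 counts in every library, which is not read as absence of its RNA. The samples are bulk RNA, in which fewer cells of a type and less RNA per cell cannot be told apart.

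The first question was whether the AP-1 and BATF genes differ between ALK tumors and control thymocytes. Jund and Batf3 were lower in the tumors, by edgeR's quasi-likelihood test at an adjusted p under 0.05 (Benjamini-Hochberg over all 16052 genes) and a log2 fold change over 1 in size. The other 8 members did not pass. Over all genes, 20.4% passed in this comparison (1350 higher and 1931 lower), so 2 of 10 members is near the background. The median log2 fold change of the 10 members was -0.82, beside 0.05 over all genes tested, and 8 of the 10 values were below 0.

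**Figure D1:**
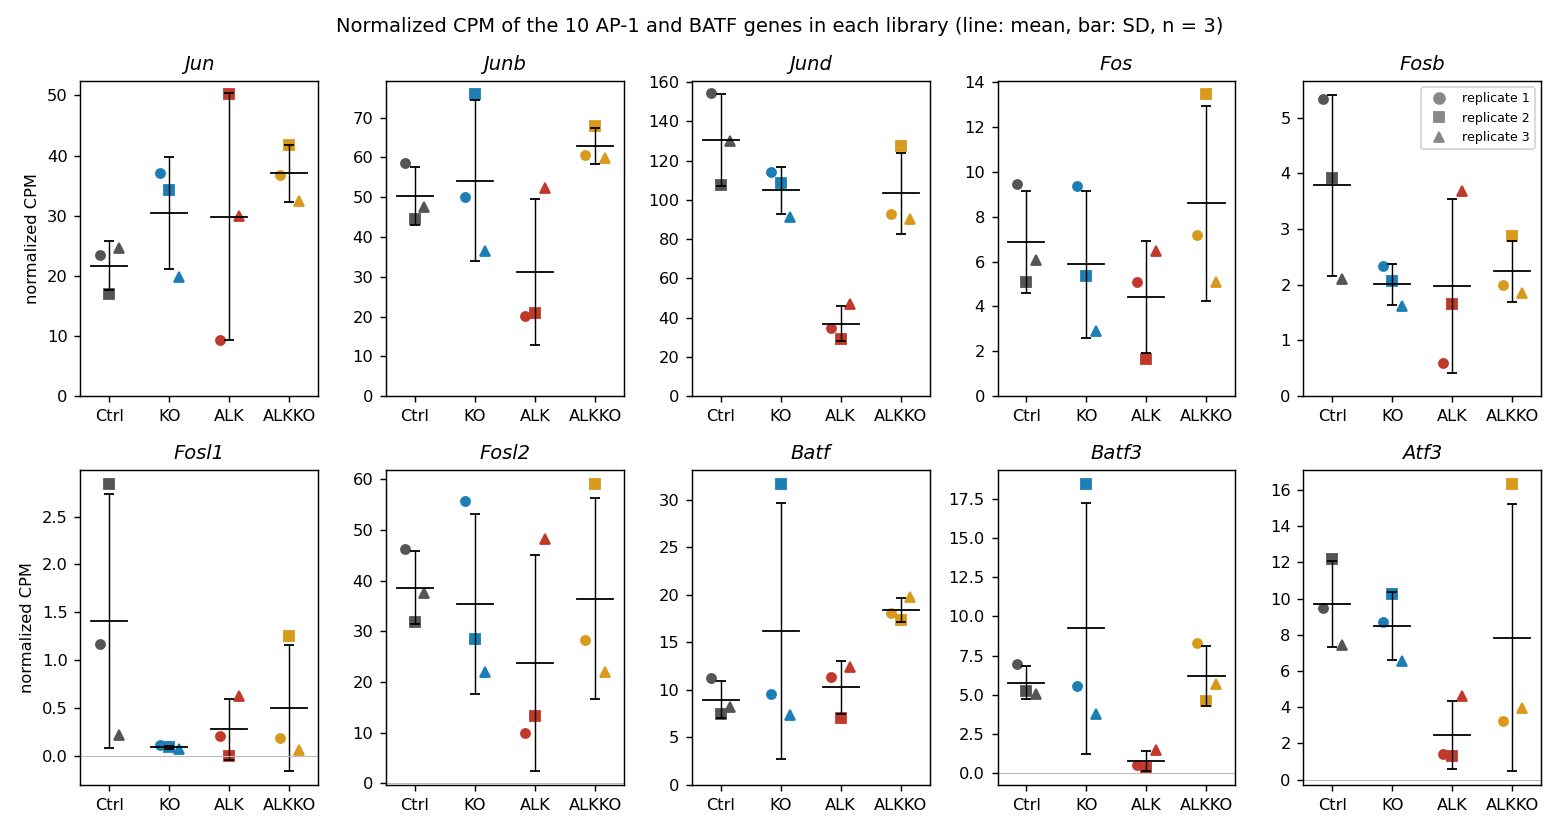
Normalized CPM of each of the 10 genes (panels, vertical axes from 0 or just below it) in the 3 libraries of each group (points, symbols by replicate), with the mean as a line and the SD as a bar. In ALK, Jund sits at 29.2 to 46.8 CPM, under every library of the other groups, and Batf3 at 0.349 to 1.49 CPM does so as well.

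JunD is the Jun protein that resting cells express constitutively, and Jund was the most abundant member per kilobase of exon. Its level was 154, 108 and 130 CPM in Ctrl, 114, 109 and 91.5 in KO, 34.9, 29.2 and 46.8 in ALK, and 92.6, 127 and 90.1 in ALKKO. The 3 tumors lay below all 9 thymocyte libraries. Jund fell by 1.82 on the log2 scale in ALK against Ctrl (SE 0.22, adjusted p = 0.00053, edgeR), a level 3.53-fold lower, with a 95% confidence interval of -2.30 to -1.34. The call was made under all 20 alternatives, with log2 fold changes of -2.04 to -1.70.

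Batf3 had its lowest levels in the tumors. It stood at 6.98, 5.25 and 5.07 CPM in Ctrl, 5.56, 18.4 and 3.77 in KO, 0.537, 0.349 and 1.49 in ALK, and 8.29, 4.61 and 5.68 in ALKKO. The tumor values rest on 8, 4 and 19 reads, and none reaches the lowest thymocyte library. The log2 fold change against Ctrl was -2.85 (SE 0.70, adjusted p = 0.0133, edgeR), or 7.22-fold lower. It was called in each of the 19 alternatives that tested the gene, but a filter of 10 counts in every library removes it.

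Some markers of dendritic cells, in which BATF3 is known to act, were also lower in the tumors. Of 8 such markers, all were tested, 4 were lower in ALK than in Ctrl (Cd209a, Xcr1, Flt3 and Zbtb46) and none was higher. The call of Flt3 was lost under 8 of 19 alternatives. Their summed level was 106 to 166 CPM in Ctrl, 109 to 473 in KO, 7.79 to 122 in ALK and 143 to 194.5 in ALKKO. Xcr1, the chemokine receptor of cross-presenting dendritic cells, was at 7.24 to 9.20 CPM in Ctrl and at 0.269 to 1.88 in ALK (log2 fold change -3.12, SE 0.64, adjusted p = 0.0058, edgeR). No marker of the list was at 0 in a tumor, with Cd209a down to 1 read. The sum of ALK replicate 3 lay within the range of Ctrl through Ccr7. Without Ccr7 the other 7 markers summed to 30.4 CPM there and to 50.1 to 76.9 CPM in Ctrl, and 6 of these 7 were below every control. The 7 B cell markers moved in the same direction, at 65.6 to 110 CPM in Ctrl and 4.45 to 11.9 in ALK (2 of 7 called lower, Blk at 0 in ALK replicate 2, and Cd79b, whose call was lost under 12 of 19 alternatives). The part of these cells in the Batf3 values was not tested.

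**Figure D2:**
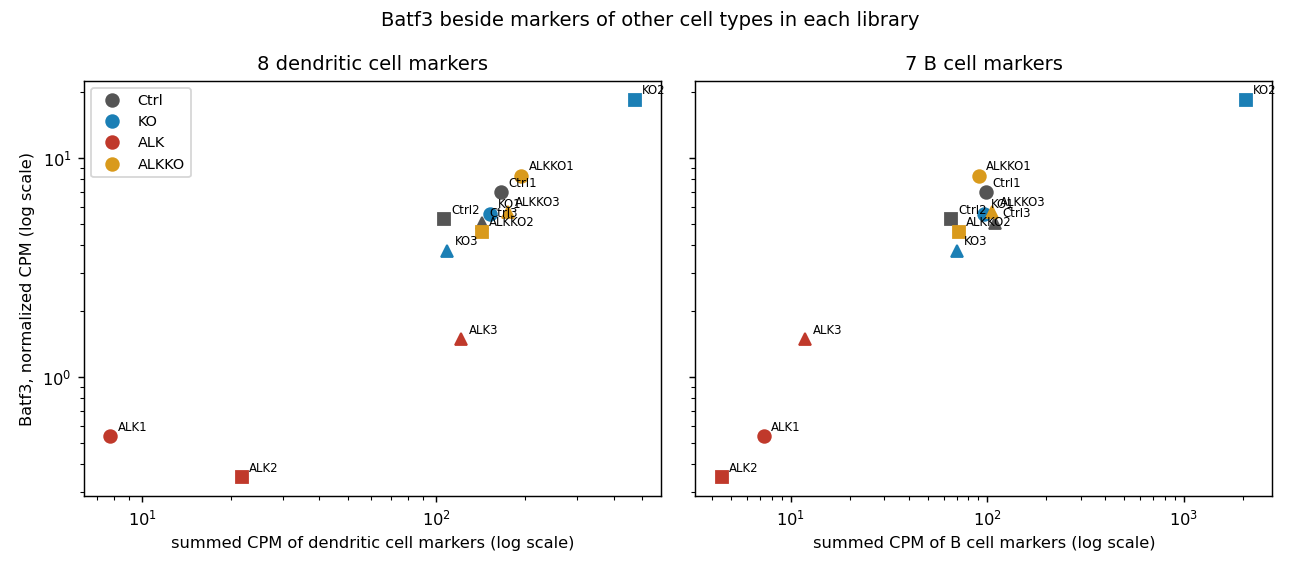
Batf3 in normalized CPM (vertical, log scale) against the summed CPM of 8 dendritic cell markers (left) and 7 B cell markers (right, both log scale), 1 point per library, coloured by group. The tumors sit lowest for Batf3, ALK replicate 3 overlaps the thymocytes in the sum of dendritic markers through Ccr7 (91.2 of 122 CPM), and KO replicate 2 is highest on every axis.

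Atf3, a stress-induced factor that can repress AP-1 targets, was lower in each tumor than in each control without passing the threshold. It was at 9.46, 12.2 and 7.44 CPM in Ctrl and 1.41, 1.31 and 4.61 in ALK, and its log2 fold change was -1.98 (SE 0.69, adjusted p = 0.0521, edgeR). In KO it was at 8.69, 10.3 and 6.54 CPM, and in ALKKO at 3.27, 16.3 and 3.96 CPM. The ALKKO libraries overlap both the tumors and the controls. Of 20 alternatives, 6 called Atf3 in ALK against Ctrl, among them DESeq2's Wald test and the fit without ALK replicate 3. The 3 members whose tumor and control libraries did not overlap were Jund, Batf3 and Atf3, and 46.4% of all genes tested did not overlap.

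Junb and Jun did not pass. Junb, an immediate-early gene, was at 58.6, 44.6 and 47.7 CPM in Ctrl and at 20.2, 20.9 and 52.4 in ALK (log2 fold change -0.69, SE 0.37, adjusted p = 0.179, edgeR). ALK replicate 3 alone was within the control range. With labelled age as a covariate Junb was called lower (log2 fold change -1.18, adjusted p = 0.0377, edgeR), and ALK replicate 3 was the oldest mouse, at 31 wk. Jun, which encodes the founding c-Jun subunit, spread widely among the tumors, at 9.27, 50.3 and 29.9 CPM against 23.5, 17.1 and 24.6 in Ctrl (log2 fold change 0.46, SE 0.48, adjusted p = 0.496, edgeR). Its tumor values lie on both sides of the controls, and the fold change turned to -0.17 without ALK replicate 2.

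None of the 4 Fos genes passed in ALK against Ctrl. Fosl2, which encodes Fra-2, had the highest mean of them per kilobase in Ctrl and ALK, and was at 46.2, 32.0 and 37.6 CPM in Ctrl and 9.88, 13.3 and 48.3 in ALK. ALK replicate 3 was above every control while the other two tumors were below all of them, and the log2 fold change was -0.70 (SE 0.60, adjusted p = 0.406, edgeR), or -1.55 (adjusted p = 0.099) with labelled age as a covariate. Fos, the immediate-early gene, ranged from 5.09 to 9.46 CPM in Ctrl and 1.66 to 6.49 in ALK (log2 fold change -0.64, SE 0.60). Fosb ranged from 2.10 to 5.34 CPM in Ctrl and 0.605 to 3.68 in ALK (log2 fold change -0.94, SE 0.59). Fosl1, which encodes Fra-1, was near the detection floor, with 22, 53 and 4 reads in Ctrl and 3, 0 and 8 in ALK, and no difference was detectable at this depth (log2 fold change -2.30, SE 1.22).

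Batf, the BATF family member of activated T cells, did not differ detectably between tumors and controls. It was at 11.2, 7.50 and 8.19 CPM in Ctrl and 11.4, 7.07 and 12.4 in ALK, with overlapping ranges and a log2 fold change of 0.19 (95% confidence interval -0.89 to 1.28). Per kilobase of exon, the ratio of Batf3 to Batf was 0.545 to 0.616 in Ctrl, 0.452 to 0.514 in KO, 0.0417 to 0.106 in ALK and 0.234 to 0.403 in ALKKO. The ratio was lowest in the tumors, and KO replicate 2, where both genes were high, kept a ratio of 0.512. The ratio was chosen after its values were seen, and its exact permutation p for ALK against Ctrl was 0.1 (two-sided), the smallest that 3 libraries in each group allow.

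ALK replicate 3 had the highest level of the 3 tumors for 9 of the 10 members, Jun being the exception. Without this library, 6 members passed in ALK against Ctrl (Junb, Jund, Fosb, Fosl2, Batf3 and Atf3), all lower, beside 22.6% of all genes in that fit. Junb was then at a log2 fold change of -1.31 (adjusted p = 0.0075) and Fosl2 at -1.75 (adjusted p = 0.026), both by edgeR. In ALK replicate 3 the macrophage and granulocyte markers summed to 1184 CPM, against 536 and 423 in the other two tumors, and their part in its member levels was not tested.

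**Figure D3:**
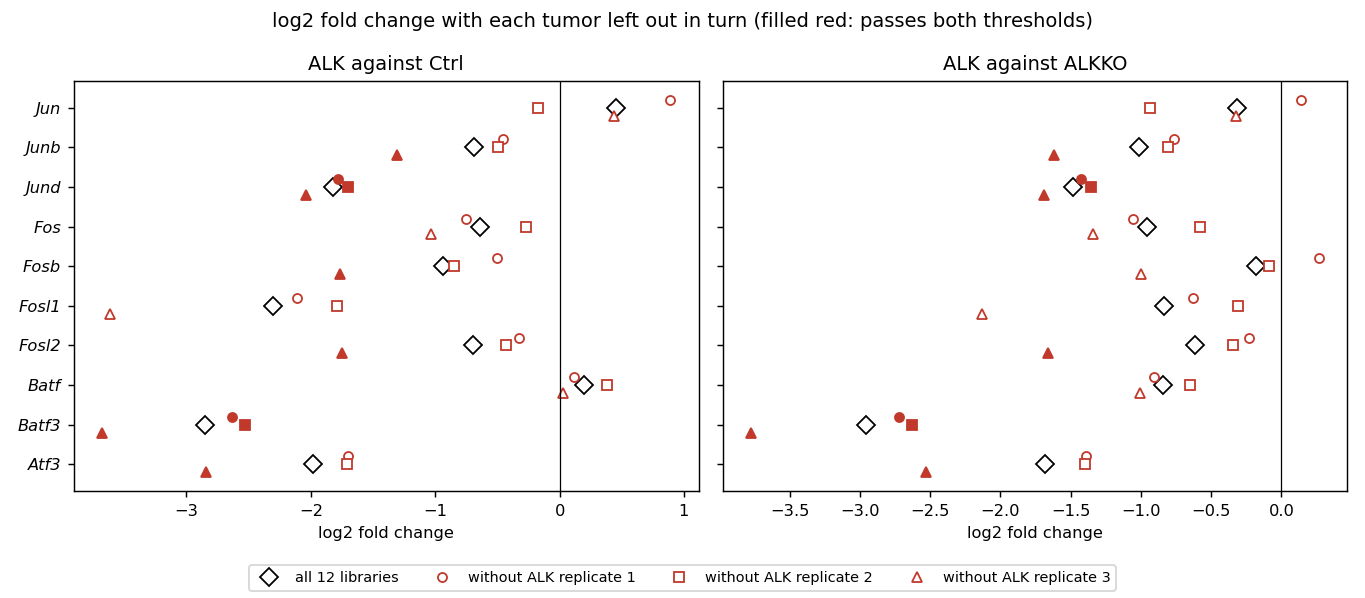
Log2 fold change (horizontal) of each member in ALK against Ctrl (left) and ALK against ALKKO (right), with all 12 libraries (diamonds) and with each tumor left out in turn (red symbols, filled where both thresholds were passed). Without replicate 3, Junb, Fosl2 and Atf3 are called lower in both panels and Fosb in the left one, and Jund and Batf3 are called in every fit shown.

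The second question was whether ALKKO thymocytes, which carry the transgene without Dnmt1, resemble the tumors in these genes. In ALK against ALKKO, Jund and Batf3 again passed, beside 19.6% of all genes tested, so the count is near the background here too. This comparison shares the ALK libraries with the first one. All 10 log2 fold changes were below 0, with a median of -0.90 beside 0.03 over all genes. The value was -1.48 for Jund (SE 0.21, adjusted p = 0.0014, edgeR) and -2.96 for Batf3 (SE 0.70, adjusted p = 0.0119, edgeR).

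Junb and Batf separated the tumors from ALKKO without passing. Junb was at 60.6, 68.0 and 59.8 CPM in ALKKO, all above the 3 tumors (log2 fold change -1.01, SE 0.37, adjusted p = 0.0645, edgeR). Batf was at 18.1, 17.3 and 19.7 CPM in ALKKO, also above them (log2 fold change -0.84, SE 0.49, adjusted p = 0.222, edgeR). With Jund and Batf3, 4 of 10 members did not overlap, beside 43.2% of all genes. Atf3 gave -1.68 (SE 0.68, adjusted p = 0.0897, edgeR), Fos -0.96 (SE 0.60), Fosl1 -0.84 (SE 1.24), Fosl2 -0.62 (SE 0.60), Jun -0.31 (SE 0.48) and Fosb -0.18 (SE 0.59). Without ALK replicate 3, 5 members were called (Junb, Jund, Fosl2, Batf3 and Atf3), beside 22.4% of all genes.

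The difference between both transgene contrasts, ALK minus Ctrl less ALKKO minus KO, was tested in the same fit. Jund passed with a difference of -1.80 (SE 0.30, adjusted p = 0.0077, edgeR, 95% confidence interval -2.46 to -1.14), beside 8.93% of all genes. Batf3 gave -2.28 (SE 0.93, adjusted p = 0.143), Atf3 -1.87 (SE 0.94, adjusted p = 0.225), Junb -0.90 (SE 0.52, adjusted p = 0.285) and Fosl1 -4.72 (SE 1.85, adjusted p = 0.130), all by edgeR. Without KO replicate 2, whose Batf3 was 18.4 CPM, Batf3 passed as well (2 members, beside 9.76% of all genes). Without ALK replicate 3, both Junb and Batf3 passed with Jund (3 members, beside 12.8% of all genes).

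The deletion of Dnmt1 alone was compared in KO against Ctrl, where 0 of the 10 members passed edgeR's test and 1, Fosl1, had an unadjusted p under 0.05, while 0.0187% of all genes passed and 5.52% had an unadjusted p under 0.05. DESeq2's Wald test called 0 members and 0.262% of all genes. Fosl1 had 2, 1 and 1 reads in KO and 22, 53 and 4 in Ctrl and was the only member without overlap, beside 12.4% of all genes (log2 fold change -3.89, adjusted p = 0.864, edgeR). Jund had a log2 fold change of -0.32 (95% confidence interval -0.78 to 0.15).

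Batf and Batf3 were high in 1 of the 3 KO mice. Batf was at 9.54, 31.7 and 7.35 CPM, and KO replicate 2 alone lay outside the Ctrl range of 7.50 to 11.2 CPM on the upper side. The log2 fold changes of 0.85 for Batf and 0.68 for Batf3 became -0.08 and -0.30 without this library. Irf4 and Irf8 are the IRF partners of BATF; Irf8 was listed at 0 counts in every library, also where B cell markers were high, which is not read as absence of its RNA, and Irf4 was at 158 CPM in KO replicate 2 and at 3.75 to 32.4 CPM in all others. The same library had 2078 CPM of B cell markers, 473 CPM of dendritic cell markers and a summed thymocyte marker level of 4441 CPM, against 10660 to 12320 in Ctrl, and the part of other cells in its Batf and Batf3 values was not tested.

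In ALKKO against Ctrl, 0 of 10 members passed edgeR's test and 0 had an unadjusted p under 0.05, beside 0.181% and 3.18% of all genes. DESeq2's Wald test called 0 members too, beside 0.611% of all genes. Jun, Junb and Batf were higher in each ALKKO library than in each control, beside 9.92% of all genes that did not overlap in that direction. Batf, at 18.1, 17.3 and 19.7 CPM against 11.2, 7.50 and 8.19, had the largest of these log2 fold changes (1.04, 95% confidence interval -0.05 to 2.13, adjusted p = 0.9998, edgeR). Jun gave 0.77 (SE 0.48) and Junb 0.32 (SE 0.37), and Jund gave -0.34 (SE 0.21). ALKKO replicate 2 was the highest ALKKO library for 8 of the 10 members.

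In ALKKO against KO, which asks what the transgene does in Dnmt1-deleted thymocytes, 0 of 10 members passed edgeR's test, 0 had an unadjusted p under 0.05 and 0 had groups that did not overlap, beside 0.00623%, 2.69% and 6.34% of all genes. DESeq2's Wald test called 0 members, beside 0.15% of all genes. The log2 fold changes ran from -0.58 for Batf3 to 2.42 for Fosl1, and the latter rests on 3, 21 and 1 reads in ALKKO.

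**Figure D4:**
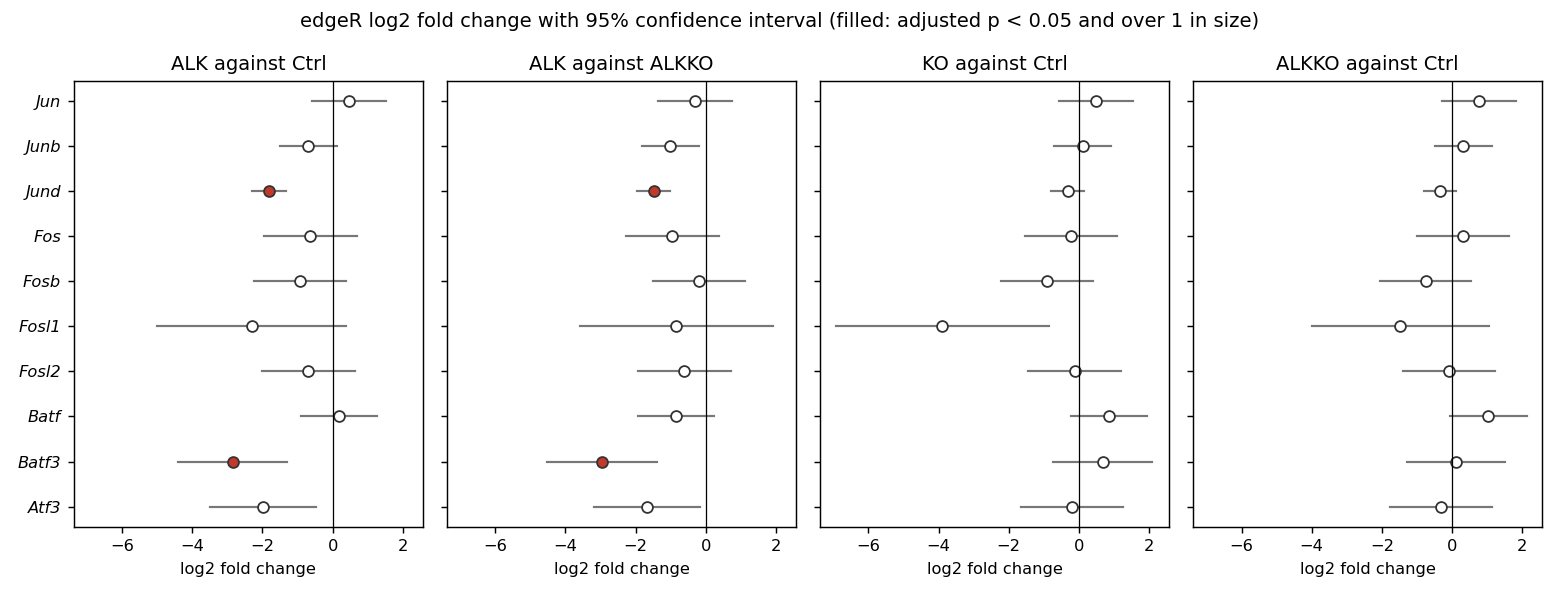
Log2 fold change of each member (horizontal, edgeR) with its 95% confidence interval in 4 comparisons, filled where the adjusted p was under 0.05 and the change over 1 in size. Jund and Batf3 are filled in the 2 comparisons of ALK, and no member is filled in KO or ALKKO against Ctrl.

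Compared per kilobase of exon, the members kept the same leaders in every group, Jund first and Junb second by the mean. In Ctrl, Jund stood at 78.3 ± 14.0 CPM per kb (SD, n = 3), Junb at 21.9 ± 3.2, Jun at 6.81 ± 1.28, Batf at 6.38 ± 1.40, Atf3 at 4.50 ± 1.10, Fosl2 at 3.99 ± 0.74, Batf3 at 3.61 ± 0.66, Fos at 2.93 ± 0.97, Fosl1 at 0.692 ± 0.654 and Fosb at 0.606 ± 0.260. Jund lay clear of Junb, Junb of Jun, and Fos of Fosl1, while the ranges of the other neighbours in this order overlapped. In ALK, Jund at 22.2 ± 5.4 CPM per kb and Junb at 13.5 ± 8.0 overlapped in their ranges, though Jund was higher in 3 of 3 tumors. Batf had rank 3 in KO (11.5 ± 9.6 CPM per kb) and in ALKKO (13.1 ± 0.9) and rank 4 in the other groups, and its range overlapped that of Jun throughout.

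The share of Jund in the summed level of the 10 members was 58.1% to 62.0% in Ctrl, 42.5% to 60.1% in KO, 34.7% to 46.5% in ALK and 46.5% to 49.3% in ALKKO. The ALKKO libraries lay below all Ctrl libraries in this share, and the tumors did too. The sum itself was 111 to 152 CPM per kb in Ctrl, 91.4 to 154 in KO, 45.1 to 80.7 in ALK and 114 to 155 in ALKKO. The ratio of Junb to Jund was 0.266 to 0.300 in Ctrl, 0.288 to 0.506 in KO, 0.420 to 0.812 in ALK and 0.387 to 0.482 in ALKKO. These shares use GENCODE exon lengths, and a longer Jund transcript would lower the share of Jund in every library.

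**Figure D5:**
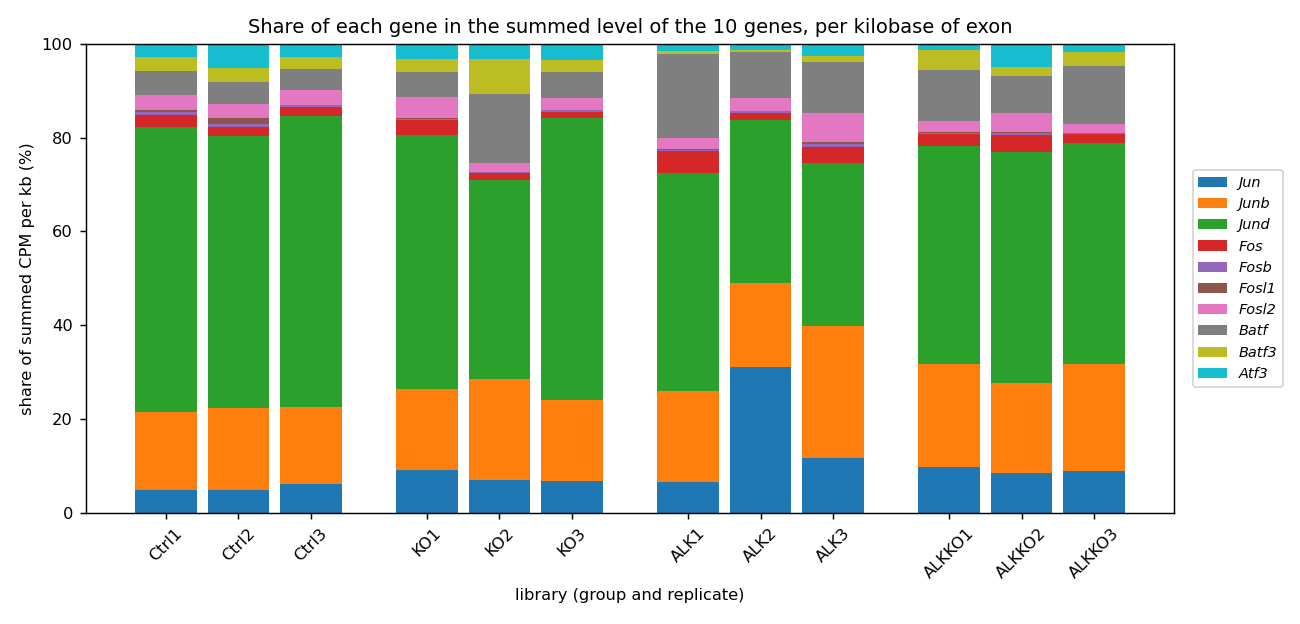
Share of each gene in the summed CPM per kilobase of exon of the 10 members (vertical, percent), 1 bar per library. Jund takes 58.1% to 62.0% in the Ctrl bars and 34.7% to 46.5% in the ALK bars, and Jun takes 31.2% in ALK replicate 2.

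The genes whose pattern over the 12 libraries was closest to the called members were found among 14601 genes, by the mean absolute difference of log2(CPM + 1) after each gene was centred. For Jund they were Sp6 (0.16), Myo16 (0.16) and Itpkb (0.17), and for Batf3 H2-DMb1 (0.11), Ebi3 (0.19) and Ptk2b (0.19), in log2 units. Itpkb, an inositol trisphosphate kinase, was at 317 to 342 CPM in Ctrl and 73.4 to 151 in ALK. H2-DMb1, a chaperone of MHC class II peptide loading, was at 30.2 to 39.0 CPM in Ctrl, 6.20 to 10.4 in ALK and up to 113 in KO, and Sp6 and Myo16 were at or below 1.72 CPM in ALK.

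Genes around the AP-1 family were counted with lists of other basic leucine zipper factors, IRF partners, MAP kinase inputs, immediate-early genes, heat-shock genes and genes known as AP-1 or BATF targets. In KO against Ctrl, ALKKO against Ctrl and ALKKO against KO, 0 genes of any of these lists were called by edgeR. The results below are for ALK against Ctrl, in which 20.4% of all genes were called.

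Many of the other immediate-early genes, which cells switch on at once after a stimulus, were lower in the tumors. Of 25 such genes 24 were tested, 14 were called lower and 0 higher, with a median log2 fold change of -1.51. The nuclear receptors Nr4a1 and Nr4a3, which respond to T-cell receptor signalling, and Cd69, an early activation antigen, fell by the most. Nr4a1 was at 96.6 to 121.5 CPM in Ctrl and 1.75 to 4.85 in ALK (log2 fold change -5.27, SE 0.42, adjusted p = 6.9e-05, edgeR). Nr4a3 fell by 5.25 (SE 0.52) and Cd69 by 4.64 (SE 0.39) on the log2 scale. The summed level of this list was 2422 to 2556 CPM in Ctrl and 679 to 962 in ALK.

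Among MAP kinase inputs and feedback genes, 29 of 30 were tested, 3 were called higher and 1 lower, with a median log2 fold change of 0.08. Spry1, a feedback inhibitor of receptor tyrosine kinase signalling, rose by 2.13 on the log2 scale (SE 0.38, adjusted p = 0.0031, edgeR), with 9.67 to 10.99 CPM in Ctrl and 27.1 to 73.9 in ALK. Mapk3, which encodes ERK1, rose by 1.43 (SE 0.25) and Spred1, a further inhibitor of the pathway, by 1.03 (SE 0.23). Dusp2, a phosphatase of nuclear ERK, fell by 1.58 (SE 0.25). The call of Spred1 was lost under 4 alternatives.

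Of 32 other basic leucine zipper factors 31 were tested, 4 were lower and 0 higher, with a median log2 fold change of -0.36. They included Cebpa (-2.63, SE 0.69), a myeloid factor, Bach2 (-2.11, SE 0.47), a repressor that competes with AP-1 for its sites, and Xbp1 (-1.50, SE 0.32), a factor of the unfolded protein response. The call of Cebpa was lost under 3 of 20 alternatives. Irf4 was lower in the tumors, with 19.5 to 25.4 CPM in Ctrl and 3.75 to 7.95 in ALK (log2 fold change -1.998, SE 0.67, adjusted p = 0.045, edgeR), a call lost under 11 of 20 alternatives. Of 11 heat-shock genes, which heat and other stresses induce, 3 were lower, among them Hspa1b, at 8.57 to 55.0 CPM in Ctrl and 0.941 to 1.57 in ALK. The call of Hspb1, another of them, was lost under 7 of 20 alternatives, and the summed level of the list was 3221 to 5096 CPM in Ctrl and 4404 to 5570 in ALK.

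Genes known as AP-1 or BATF targets went in both directions. Of 25, 23 were tested, 4 were higher and 8 lower, with a median log2 fold change of -0.07. The rises were in Il10, an anti-inflammatory cytokine (5.37, SE 1.21), Cd44, an adhesion receptor (3.87, SE 0.94), Timp1, an inhibitor of metalloproteinases (2.66, SE 0.67), and Tnfrsf8, which encodes CD30, the marker of anaplastic large cell lymphoma (2.56, SE 0.33), all as log2 fold changes. Il10 was high in 2 tumors, at 24.8 and 26.2 CPM, while ALK replicate 3 was at 0.704 CPM against at most 0.581 in Ctrl. The call of Timp1 was lost under 4 of 20 alternatives. Cd44 spread widely among the tumors, from 53.6 to 1601 CPM, against 45.9 to 52.0 in Ctrl, and its call was lost under 1 of 20 alternatives. Cd44 and Timp1 are also expressed by stromal cells. Of 11 epithelial and stromal markers, 2 collagen genes were higher in ALK, Col1a1 at 14.2 to 28.6 CPM in Ctrl and 243 to 702 in ALK, and Col3a1 at 52.4 to 109 and 311 to 1046 (a call lost under 5 of 20 alternatives). The thymic epithelial genes Psmb11, Foxn1 and Krt8 were among the 4 that were lower. The list summed to 884 to 985 CPM in Ctrl and 993 to 1904 in ALK with no marker of it at 0 in a tumor, and its part in the Cd44 and Timp1 values was not tested. The falls included Pdcd1, which encodes the receptor PD-1 (-4.31, SE 0.80), and Il21. Il21 was listed at 0 counts in all 3 tumors and was at 0.697 to 2.48 CPM in Ctrl. In the tumors 3 counts correspond to at most 0.2619 CPM.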

How the data were processed

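RNA of 12 mice was measured, 3 in each of the groups Ctrl, KO, ALK and ALKKO, grouped by the labels. The authors made stranded poly(A) libraries, trimmed single-end reads with Trim Galore, aligned them to mm10 with STAR and deposited raw HTSeq counts per gene. The submitters' processing notes also name Picard 2.19.2, FastQC and DESeq2, while versions of STAR and HTSeq, the annotation release and the strand setting are not given in the sources used here. Reads that aligned to several places are in no gene's count, and they were 48.4% to 51.8% in ALK and 39.2% to 45.6% in the other groups. The deposited rows that name no gene were left out of library sizes. Of 50600 gene IDs, 50376 were matched to GENCODE M21 on GRCm38.

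The count model was that of edgeR 4.0.16 (R 4.3.3, with TMM, filterByExpr, glmQLFit with robust estimation over 12 libraries, glmQLFTest, Benjamini-Hochberg over 16052 genes). Calls needed an adjusted p under 0.05 and a log2 fold change over 1 in size. Standard errors were derived from the F statistic. Alternatives were DESeq2 1.42.0, its size factors, other low-count filters, a replicate block, covariates for labelled age or sex, fits on only the compared groups, and each library left out. Replicates are separate mice, and no pair was alike within sampling noise. On simulated counts with known changes, the test of ALK against Ctrl recovered 52% of 100 genes changed by 2 and 66% of 100 changed by 3 on the log2 scale among 15804 genes, with 9 other calls. The simulation changed a far smaller share of genes than was called in the data. Its rates therefore do not measure how many changes the reported test finds.

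The members and gene lists were chosen with earlier results of these data known. Named genes were the 10 members, up to 3 rises and 3 falls per list (group mean of 1 CPM or more), and the 3 closest genes per called member. Tnfrsf8, Zbtb46 and Ccr7 were added after their values were seen. Python 3.11.15 with pandas 2.3.3 and matplotlib 3.10.9 was used for tables and plots. Methylation data of the study were not analysed here. Floors of 3 counts cover counting error only, and the intervals of fold changes include the spread between mice.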

Additional observations from a re-analysis of the deposited data

Results flagged for a closer look

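The contrast ALK minus Ctrl less ALKKO minus KO was itself tested by edgeR. It differed from 0 for 1 member and for 23 other named genes, beside 8.93% of all genes tested. The 23 genes had been named for their changes in the ALK comparisons, or for a pattern like Jund, in the same libraries. Their calls are therefore no separate evidence, and their number cannot be set against the share of all genes. Jund had a difference of -1.80 on the log2 scale (adjusted p = 0.0077), with each tumor below each other library. Among the immediate-early genes the difference was -5.09 for Nr4a1, -4.63 for Nr4a3 and -5.19 for Cd69, and among thymocyte markers -6.33 for Cd8b1, -5.12 for Ccr9 and -4.60 for Cd4. Among MAP kinase genes it was 1.62 for Mapk3 and -1.55 for Dusp2. It was -4.41 for Hspa1b, 4.49 for Cd44, -6.48 for Il21, -4.29 for Pdcd1 and -3.41 for Tnfrsf9, where Il21 is at 0 in ALK and its fitted value depends on the prior count. Among dendritic cell markers it was -5.29 for Cd209a and -3.25 for Xcr1, among epithelial and stromal markers 4.61 for Col1a1, -9.31 for Psmb11 and -5.69 for Foxn1, and for other markers -5.87 for Mpo, of granulocytes, and 3.15 for Epor, the erythropoietin receptor. Of the genes with a pattern like Jund, it was -2.11 for Sp6, -1.59 for Itpkb and -3.68 for Myo16. Adjusted p-values of the 24 genes were 0.00049 to 0.0485. Tumor against thymocyte and Dnmt1 status cannot be told apart in this contrast.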

How the results depend on the processing

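The calls of Jund in ALK against Ctrl, ALK against ALKKO and the difference between the transgene contrasts, and those of Batf3 in the first pair, were made under every alternative that tested them. The replicate numbers were not taken as pairs of mice. Correlations ran from -0.106 to 0.426 for same-numbered libraries and from -0.457 to 0.208 for the others. These ranges overlap and do not settle whether mice were paired. With the replicate block, members called were 2 in ALK against Ctrl, 2 in ALK against ALKKO and 1 for the difference, the same numbers as without it, and called genes overall went from 20.4% to 18.1% in ALK against Ctrl. Leaving out each library in turn gave 2 to 6 members in ALK against Ctrl, 2 to 5 in ALK against ALKKO, 1 to 3 for the difference and 0 in the comparisons without tumors. The highest of each came without ALK replicate 3, and without KO replicate 2 the difference called 2. In ALK against ALKKO, DESeq2's Wald test called 4 members (Junb, Jund, Batf3 and Atf3), and a filter of 10 counts in every library called 1, since it removes Batf3. With sex as a covariate the difference called 2 members. Since KO replicate 2 was the only female, this fit comes close to leaving that library out and is no separate check. Of 60 member values, 64 of 1168 alternative values had the opposite sign, 0 of them for a called member.

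Some printed values turned sign when single libraries were left out. Their ranges were -0.17 to 0.89 for Jun in ALK against Ctrl, and in ALK against ALKKO -0.93 to 0.14 for Jun, -0.9998 to 0.27 for Fosb (0.01 without ALKKO replicate 2) and -2.13 to 1.10 for Fosl1. In KO against Ctrl they were -0.083 to 1.18 for Batf and -0.30 to 1.04 for Batf3, and in ALKKO against KO -0.94 to 0.41 for Batf3. With sex as a covariate these last 3 were -0.086, -0.30 and 0.41. Why these values moved was not tested. Mean CPM of all 10 members in the 4 groups moved by less than 1 SD with DESeq2's size factors. Depth limited Fosl1, at 0 to 53 reads per library, and the tumor values of Batf3, at 4 to 19 reads.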
